A study of Drosophila melanogaster with 12 samples.

Results

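The genes of DNA replication were followed through a polysome sequencing experiment on Drosophila ovaries. A list of 44 symbols covering origin licensing, the replicative helicase, the DNA polymerases, the sliding clamp with its loader, and deoxynucleotide supply was matched by current or older symbol to the Release 6 annotation. Of these, 39 had a row among the 17023 genes counted, and 38 were among the 10035 genes with enough counts to test. Mcm3, Orc1, PolD3, RPA2 and RPA3 were not analysed here, and Orc3, which lies wholly within CG34315 on the same strand, had 0 counts in all 12 libraries. The tested material was ovaries with germline Nop60B RNAi, driven by nos-GAL4 in germ cells. Nop60B is the pseudouridine synthase of the H/ACA small nucleolar ribonucleoprotein complex, which modifies ribosomal RNA. For the cyst control, ovaries were bam RNAi;hs-bam, in which the same driver depletes bam and repeated heat shocks then induce bam and release germ cells into cyst differentiation. The germarial control (YWT) came from young females of genotype UAS-Dcr2;nosGAL4, which carry the driver without an RNAi construct and, like the Nop60B RNAi ovaries, were dissected shortly after eclosion. Ovaries of many females were pooled for each lysate, from which an input library and a library of the polysome fraction of a sucrose gradient were made, with 2 replicates of each.

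Replication origins are licensed when the origin recognition complex, Cdc6 and Cdt1 (dup in flies) load the MCM helicase onto DNA. Cyclin E with Cdk2 then drives recruitment of Cdc45 and the GINS complex, which turns the loaded MCM ring into a working helicase. Primase with DNA polymerase alpha begins each strand, and polymerases delta and epsilon extend it on the PCNA clamp. In the fly ovary these genes serve the divisions of stem cells and cysts, premeiotic S phase, and the endocycles in which nurse cells and follicle cells become polyploid. Many of them carry binding sites for the E2F and DREF transcription factors near their start.

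Depth, replicate agreement and cell type markers set what could be resolved. Libraries held between 2780781 and 21626125 counts, and replicate 1 of the cyst control polysomes was the shallowest. Levels are given in CPM, read counts brought to a common library size after scaling by the trimmed mean of M values (TMM). A gene was called when the edgeR quasi-likelihood test gave an unadjusted P under 0.05 and levels differed 2-fold or more. The false discovery rate (FDR) is the Benjamini-Hochberg adjusted p over all tested genes, and SE is the standard error of a log2 fold change. The targeted mRNA, Nop60B, was between 446 and 473 CPM in the 4 Nop60B RNAi libraries, against 336 to 748 in the cyst control and 1553 to 1906 in the germarial control. Summed over 13 germline markers, the level was 724 to 943 CPM in Nop60B RNAi, 2560 to 3550 in the cyst control and 1950 to 2090 in the germarial control. For 8 germline markers of egg chambers the sums were 723 to 862, 1210 to 5670 and 6280 to 7380 CPM in the same order. Muscle markers (7 genes) summed to 26900 to 34300 CPM in Nop60B RNAi, 3800 to 27400 in the cyst control and 4770 to 5700 in the germarial control, and hemocyte markers (7 genes) to 3440 to 9760, 594 to 1720 and 583 to 889. Somatic gonad markers (10 genes) summed to 1210 to 2000, 265 to 1880 and 576 to 957 CPM. Fat body markers (5 genes) summed to 45.8 to 192, 336 to 1790 and 33.9 to 94.0 CPM. In the cyst control most of the fat body sum was Yp1, at 1760 and 316 CPM in polysomes and 947 and 382 in input. The next highest there, apolpp, was at 17.4 to 36.1 CPM. Heat shock genes (13 genes) summed to 2760 to 4430, 19100 to 59700 and 4780 to 5950 CPM. No marker was at 0 in all 4 libraries of a genotype. The germline markers did not fall alike. In Nop60B RNAi against germarial polysomes their log2 fold changes ran from -3.91 to 1.06 (median -1.93). Of these, 11 were below 0 and 2 above (tud and spn-E). In replicate 1 of Nop60B RNAi polysomes, tud, spn-E and piwi held 195, 129 and 193 of the 761 CPM summed, and tej and bam 4.27 and 0.0619. In whole ovaries, fewer germ cells and less replication mRNA per cell cannot be told apart.

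**Figure D1:**
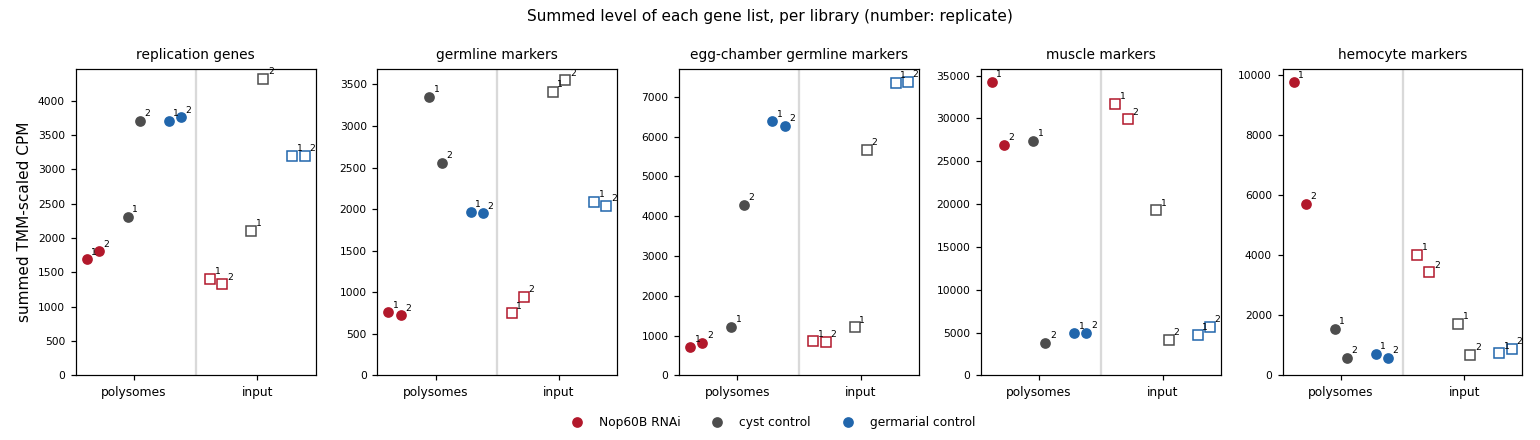
Summed TMM-scaled CPM (y axis) of the 38 replication genes and of 4 marker lists in each of the 12 libraries, with filled circles for polysomes, open squares for input and a number for the replicate. The Nop60B RNAi libraries held the lowest sums of replication and germline genes and high sums of muscle and hemocyte genes, and cyst control replicate 1 held more muscle and less egg-chamber RNA than replicate 2.

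Replication mRNAs were lower in Nop60B RNAi ovaries than in either control when libraries were scaled by TMM. None was called lower when libraries were scaled to the germline markers instead, where 0.867% to 3.02% of all tested genes were. The median of the replication genes lay below that of all tested genes under both scalings. A change of scaling moves all genes by about the same amount, so this gap is not a separate result under each. The 38 genes together made up 1690 and 1810 CPM in Nop60B RNAi polysomes, against 2310 and 3710 in cyst control polysomes and 3710 and 3760 in germarial control polysomes. In input they made up 1410 and 1330 CPM in Nop60B RNAi, against 2110 and 4320 in the cyst control and 3200 and 3200 in the germarial control. Nop60B RNAi libraries were thus below every control library in both fractions. Set against the sum of the germline markers, which did not all fall alike, the order changed. The germline scaling rests on the same sum. The replication sum was 2.22 and 2.5 times the germline marker sum in Nop60B RNAi polysomes, against 0.690 and 1.45 in cyst control polysomes and 1.88 and 1.93 in germarial control polysomes. In input the ratio was 1.89 and 1.41 in Nop60B RNAi, against 0.619 and 1.22 in the cyst control and 1.53 and 1.57 in the germarial control, so that Nop60B RNAi and germarial control inputs overlapped.

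Against the germarial control, 14 of the 38 genes were called lower in polysomes and 0 higher by edgeR, where 11.7% of all tested genes were called lower and 14.1% higher. In input 16 were called lower and 0 higher, where 6.35% of all tested genes were lower and 11.5% higher. DESeq2 called 18 lower in each fraction and 0 higher, and edgeR found 0 higher at an unadjusted P under 0.05 whatever the fold. The FDR was under 0.05 for 3 of the lowered genes in polysomes (Mcm2, geminin and PCNA; 3.26% of all genes) and for 3 in input (Mcm2, dpa and PCNA; 1.23% of all genes). The median log2 fold change of the replication genes was -1.13 in polysomes and -1.23 in input, beside -0.08 and 0.02 over all tested genes. Both Nop60B RNAi libraries were below both germarial libraries for 34 genes in polysomes, which held for 34.6% of all tested genes, and for 36 in input, which held for 38.0%. Of the genes called lower in polysomes, 11 were also called lower in input, which was 78.6% of those called in polysomes and 68.8% of those called in input. Over all tested genes the same overlap was 37.1% of those called lower in polysomes and 68.4% of those called lower in input. Scaling to the germline markers moved the median of all genes to 1.22 in polysomes and 1.33 in input. The replication genes then had medians of 0.27 and 0.08. In polysomes 0 were lower (3.02% of all tested genes) and 2 higher (Psf3 and RpA-70; 37.3%), and in input 0 were lower (1.03%) and 1 higher (Psf3; 34.1%). Relative to the median of all genes, the replication genes lay 1.06 lower in polysomes and 1.25 lower in input under TMM. Under germline scaling they lay 0.95 and 1.24 lower, a gap that a change of scaling leaves nearly fixed. The part of germline content, muscle and hemocyte RNA in these differences was not tested. Except for germline scaling, counts from alternative fits are given here and below without the share of all tested genes. Such counts do not show whether replication genes moved more than all tested genes did. The count in polysomes was 8 and 6 without germarial control replicate 1 or 2 and 24 without either cyst control polysome library, and that in input 9 and 6 without Nop60B RNAi replicate 1 or 2.

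Against the cyst control, 11 genes were called lower in polysomes (16.7% of all tested genes) and 1 higher (9.84%), and in input 16 were called lower (10.2%) and 0 higher (9.01%). DESeq2 called 13 lower and 1 higher in polysomes and 16 lower and 0 higher in input, and edgeR found 0 higher in input at an unadjusted P under 0.05. After adjustment 4 lowered genes remained in polysomes (Mcm5, Cdc6, Gnf1 and CycE; 5.52% of all genes) and 7 in input (Mcm2, dpa, Mcm5, Mcm6, PolA2, Gnf1 and RnrL; 2.32% of all genes). Their median log2 fold change was -0.90 in polysomes and -0.96 in input, beside -0.18 and -0.01 over all tested genes. Both Nop60B RNAi libraries were below both cyst libraries for 19 genes in polysomes (20.6% of all tested genes) and for 26 in input (30%). With germline scaling 0 genes were lower (2.68% of all tested genes) and 6 higher (46.7%) in polysomes, and 0 lower (0.867%) and 10 higher (52.4%) in input. The median of all genes moved to 1.74 and 2.05. Relative to that median the replication genes then lay 0.68 and 0.94 lower, against 0.72 and 0.95 lower under TMM. Rescaling leaves this gap nearly fixed. The polysome count rested on which cyst control library was kept, with 22 lower and 0 higher without replicate 1 and 5 lower and 14 higher without replicate 2. Without cyst control input replicate 2 the input count was 5 lower, without Nop60B RNAi input replicate 2 it was 9, and the polysome count was 5 lower and 0 higher when only the libraries compared were fitted.

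Lower levels against both controls at once were called for 7 genes in polysomes (Mcm2, Mcm5, Mcm6, Cdc6, geminin, PolE1 and Gnf1), where 6.47% of all tested genes met the same criteria. In input they were called for 10 genes (Mcm2, dpa, Mcm5, Mcm6, Mcm7, PolA2, PolE1, Gnf1, DNAlig1 and RnrL), where 2.57% did. Both comparisons share the Nop60B RNAi libraries. The polysome count ranged from 5 to 17 when 1 library was left out, with 17 without cyst control polysome replicate 1 and 5 without cyst control polysome replicate 2 or without either germarial control polysome library, and was 2 (Cdc6 and Gnf1) in separate fits. The input count ranged from 4 to 15, with 4 without cyst control input replicate 2, 5 without Nop60B RNAi input replicate 2 and 15 without either cyst control polysome library, and was 16 in separate fits. Without the count filter 11 genes were called in polysomes. With germline scaling 0 genes were lower against both controls, and 2 were higher in polysomes and 1 in input. Against each control taken singly, 34.1% to 52.4% of all tested genes were called higher with that scaling. FDR values under 0.05 against both controls were reached in input by Mcm2 and dpa and in polysomes by 0 genes. Over the 2 comparisons and 2 fractions, 25 of the 38 genes were called at least once, in either direction, as were 46.7% of all tested genes. The 13 others were Mcm10, Orc4, Orc5, CDC45L, Psf1, Psf2, Prim1, Prim2, PolE2, PolD1, PolD2, RfC38 and RpA-70.

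**Figure D2:**
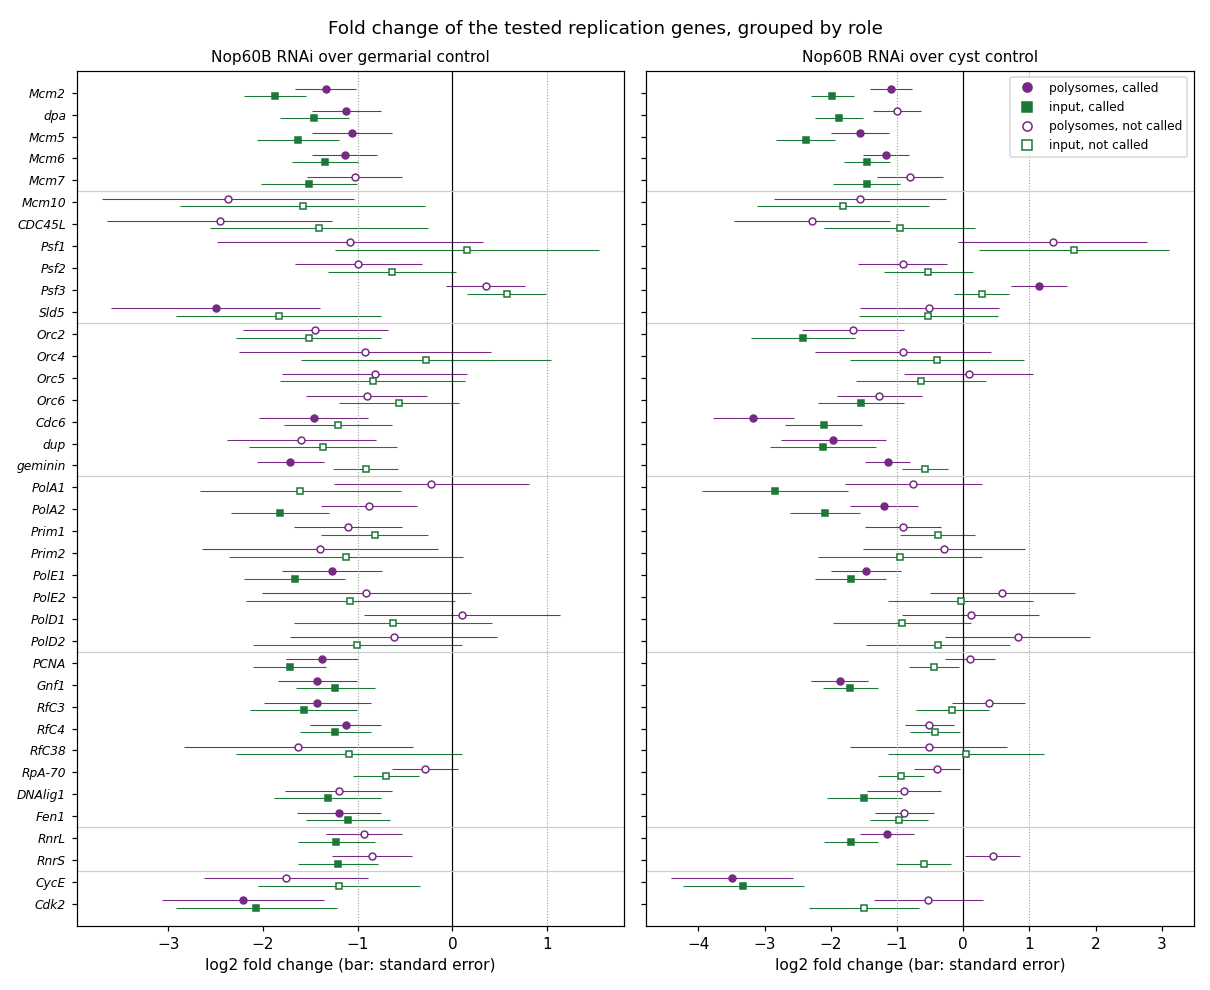
Log2 fold change (x axis, TMM scaling, bars are standard errors) of each of the 38 replication genes in Nop60B RNAi over the germarial control (left) and over the cyst control (right), in polysomes (circles) and input (squares), with filled symbols for called genes and lines between role classes. Points lie mostly left of 0, with medians of -1.13 and -1.23 in the left panel and -0.90 and -0.96 in the right panel, and all of these medians are above 0 when libraries are scaled to germline markers (0.27, 0.08, 1.06 and 1.10). Over all tested genes the medians under that scaling are 1.22, 1.33, 1.74 and 2.05.

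Promoter windows of the replication genes were read from 250 bases before to 50 after the annotated gene start, in the RefSeq Release 6 (dm6) genome with Ensembl gene starts. The DREF motif was searched as TATCGATA, which is its own reverse complement, and E2F-type motifs as TTTCGCGC, TTTGGCGC, TTTCCCGC and TTTGCCGC on both strands, where matches may overlap. The DREF motif was in 14 of 39 windows (35.9%), against 9.36% of 13968 protein-coding genes, and an E2F-type match in 16 (41%), against 6.41%. At least 1 of them was in 24 windows (61.5%, against 15.2%) and both kinds were in 6 (15.4%, against 0.587%). The most frequent E2F-type match, TTTGGCGC, was in 10 windows (25.6%, against 2.36%). These are matches of letters and not sites of measured binding. Among genes called lower in any comparison with Nop60B RNAi, dpa, Mcm7, Cdc6, dup, geminin, RfC3, Fen1 and CycE had no match. The sequences around a match are shown for examples among genes lowered in input, with the match in capitals, 5′ to 3′ on the gene's strand.
Mcm2, chr3R:8264990-8265019, plus strand: ctcgattagcaaacatTTTCCCGCgcattt
Mcm5, chr3R:10788544-10788573, plus strand: ccggtaattttgGCGGCAAAatattcgcac
Mcm6, chrX:6674389-6674418, plus strand: gtcagaaaaagGCGCCAAAaccgagcaaag
PolA2, chr3R:27239136-27239165, plus strand: ctgactatgctTATCGATAagaaaactcaa
PolE1, chr3R:23348030-23348059, plus strand: ttttgaaattgGCGCCAAAcgtgttacttt
Gnf1, chr3R:4906545-4906574, plus strand: atttagtgagcTATCGATAacgttcagtgc
RnrL, chr2L:10327923-10327952, minus strand: aatgactttaaTTTGGCGCctttttgtgct
Orc2, chr3R:13964891-13964920, plus strand: catgtcttagtTATCGATAattcccgccac
PolA1 had the most DREF motif matches of any gene on the list, and its 250 bases upstream of the start hold 3 of them (capitals).
PolA1, chr3R:21671751-21672000, minus strand: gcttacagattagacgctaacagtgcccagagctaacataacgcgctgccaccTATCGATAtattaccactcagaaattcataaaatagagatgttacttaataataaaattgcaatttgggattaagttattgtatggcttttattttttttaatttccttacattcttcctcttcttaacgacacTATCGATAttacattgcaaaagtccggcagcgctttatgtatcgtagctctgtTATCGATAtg
The matches of the MCM genes were all of E2F type and lay after the annotated start, at 36, 32 and 13 bases. Mcm2 and RpA-70 are transcribed away from each other and share an interval of 518 bases (chromosome 3R from 8264452 to 8264969) in which neither motif was found. Among the 38 tested genes, 9 of 23 with a match and 5 of 15 without were called lower against the germarial control in polysomes, and 12 of 23 and 4 of 15 in input. Against the cyst control the counts were 7 of 23 and 4 of 15 in polysomes and 11 of 23 and 5 of 15 in input. E2f1 mRNA, which encodes the activating E2F factor, had 69.4 and 29.2 CPM in Nop60B RNAi polysomes, against 418 and 156 in the cyst control and 69.7 and 62.7 in the germarial control. Dref mRNA, which encodes the factor binding TATCGATA, had 87.7 and 92.4 CPM, against 114 and 70.9 and against 108 and 108. E2f1 was called lower against the cyst control in polysomes (log2 fold change -2.54) and in input (-1.60) and not called against the germarial control (-0.43 and -0.03), and Dref was called in neither.

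**Figure D3:**
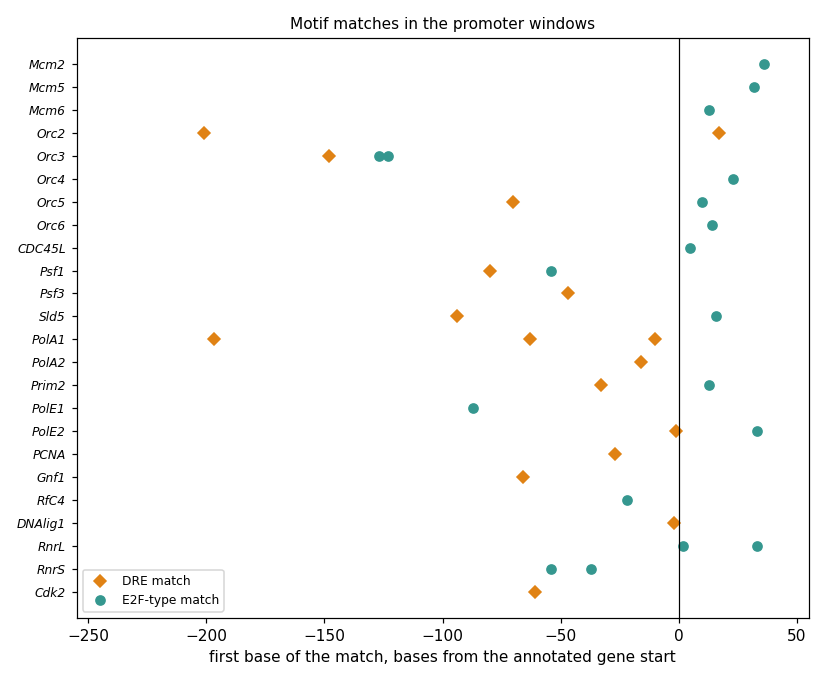
Position of the first base of each DREF (DRE, diamonds) and E2F-type (circles) match, in bases from the annotated gene start (x axis), for the 24 replication genes with a match (y axis). The 3 MCM genes with a match have it after the start, and most DREF matches lie before it. The windows reach 250 bases before the start and only 50 after it.

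The MCM helicase, the hexamer that unwinds DNA, was lowered in each measured subunit. All 5 measured subunits were called lower in input against both controls, where 2.57% of all tested genes were. Their log2 fold changes lay between -1.87 and -1.34 relative to germarial controls and between -2.38 and -1.45 relative to cyst controls. In polysomes 4 subunits were called lower than in germarial controls (11.7% of all tested genes) and 3 than in cyst controls (16.7%). Mcm2 (FBgn0014861, chromosome 3R from 8264970 to 8267924) was at 40.0 and 32.4 CPM in Nop60B RNAi input, against 108 and 177 in cyst control input and 135 and 130 in germarial control input. In polysomes it was at 73.5 and 80.1 CPM in Nop60B RNAi, against 155 and 173 in the cyst control and 203 and 186 in the germarial control. Nop60B RNAi libraries lay below all control libraries in both fractions. Mcm2 had log2 fold changes against the germarial control of -1.87 in input (SE 0.33, edgeR FDR = 0.0164) and -1.34 in polysomes (0.32, FDR = 0.0300), and against the cyst control of -1.98 (0.33, FDR = 0.00824) and -1.10 (0.32, FDR = 0.0541).

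dpa, which encodes Mcm4 (FBgn0015929, chromosome 2R from 7496702 to 7500145), was at 47.7 and 47.2 CPM in Nop60B RNAi input, against 140 and 208 in the cyst control and 131 and 130 in the germarial control. Its polysome levels were 90.9 and 62.5 CPM in Nop60B RNAi, against 111 and 195 in the cyst control and 172 and 161 in the germarial control. Relative to the germarial control dpa had a log2 fold change of -1.46 in input (edgeR FDR = 0.0497) and -1.12 in polysomes (FDR = 0.0793), and relative to the cyst control -1.88 (FDR = 0.0197) and -0.998 (FDR = 0.105, just short of 2-fold). Mcm5 (FBgn0017577, chromosome 3R from 10788524 to 10791150) was at 28.5 and 33.4 CPM in Nop60B RNAi input, against 130 and 193 in the cyst control and 102 and 89.7 in the germarial control. In polysomes Mcm5 had 31.7 and 71.9 CPM in Nop60B RNAi, against 125 and 180 in the cyst control and 92.6 and 123 in the germarial control. Its difference from the cyst control was the largest of the MCM subunits, at -2.38 in input (FDR = 0.0157) and -1.56 in polysomes (FDR = 0.0461), although the Nop60B RNAi polysome replicates lay over 2-fold apart.

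Mcm6 (FBgn0025815, chromosome X from 6674387 to 6677176) was at 44.8 and 42.1 CPM in Nop60B RNAi input, against 88.2 and 149 in the cyst control and 104 and 117 in the germarial control. In polysomes it was at 64.0 and 72.8 CPM in Nop60B RNAi, against 174 and 134 in the cyst control and 173 and 128 in the germarial control, with no overlap in either fraction. Its log2 fold changes were -1.45 in input (edgeR FDR = 0.0431) and -1.17 in polysomes (FDR = 0.0597) against the cyst control, and -1.34 (FDR = 0.0568) and -1.14 (FDR = 0.0662) against the germarial control. Mcm7 (FBgn0020633, chromosome 3L from 8891596 to 8894310) overlaps asRNA:CR45871 on the other strand over most of its length, and whether the counting used strand is not given in the sources used here. It was at 44.0 and 37.5 CPM in Nop60B RNAi input, against 57.5 and 166 in the cyst control and 123 and 109 in the germarial control. In polysomes its 81.9 and 52.9 CPM overlapped the 79.6 and 155 CPM of the cyst control, below the 149 and 126 CPM of the germarial control. Mcm7 was called lower in input against both controls, with FDR values of 0.125 and 0.127, and was not called in polysomes.

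**Figure D4:**
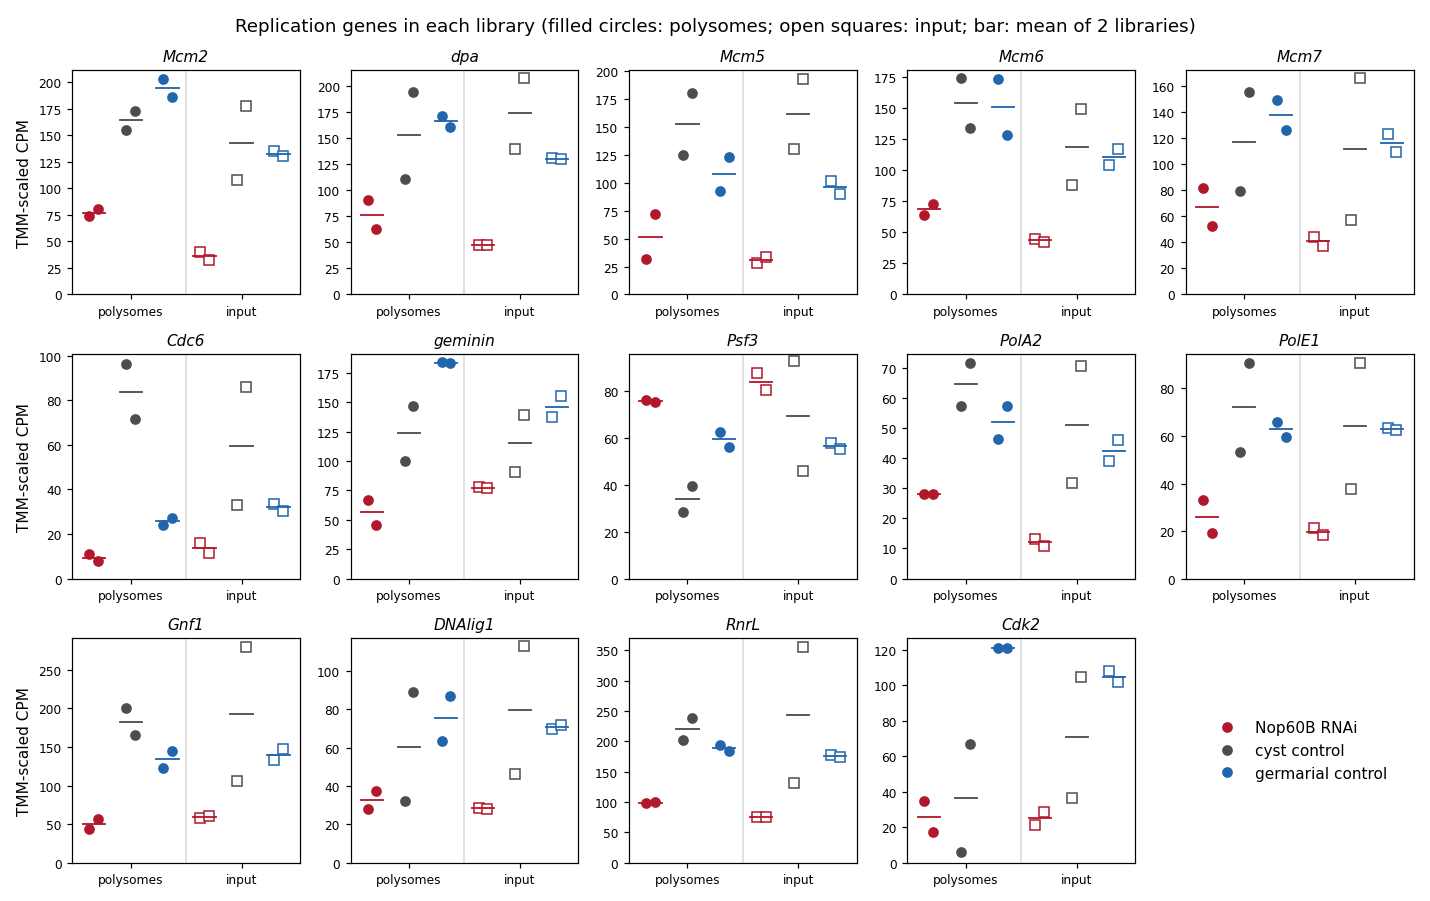
TMM-scaled CPM (y axis, starting at 0) of 14 replication genes in each library, with filled circles for polysomes, open squares for input and a horizontal bar for the mean of 2 libraries. Most genes are lowest in Nop60B RNAi, as Mcm2 with 40.0 and 32.4 CPM in input, while Psf3 is not lower in Nop60B RNAi and the cyst control replicates are often far apart.

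Origin recognition and loading genes had median log2 fold changes of -1.27 in polysomes against the cyst control and -1.45 against the germarial control. In polysomes 3 of 7 were called lower against the cyst control (Cdc6, dup and geminin; 16.7% of all tested genes) and 2 against the germarial control (Cdc6 and geminin; 11.7%). In input 4 were called lower against the cyst control (Orc2, Orc6, Cdc6 and dup; 10.2%) and 0 against the germarial control (6.35%). Cdc6 (FBgn0035918, chromosome 3L from 8631509 to 8634069), the loader that works with the origin recognition complex, lies wholly within Zasp66 on the other strand. It was at 10.9 and 7.69 CPM in Nop60B RNAi polysomes, against 96.3 and 71.4 in cyst control polysomes and 24.0 and 27.3 in germarial control polysomes. In input it was at 15.9 and 11.7 CPM in Nop60B RNAi, against 33.1 and 86.0 in the cyst control and 33.6 and 30.2 in the germarial control. Cdc6 thus had non-overlapping levels in the 3 genotypes in polysomes, highest in the cyst control. In polysomes Cdc6 differed on the log2 scale by -3.17 against the cyst control (SE 0.61, edgeR FDR = 0.0114) and -1.47 against the germarial control (0.57, FDR = 0.129).

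geminin (FBgn0033081, chromosome 2R from 6655463 to 6656594), whose product holds Cdt1 inactive, differed more in polysomes than in input. It was at 66.6 and 45.9 CPM in Nop60B RNAi polysomes, against 100 and 147 in the cyst control and 184 and 183 in the germarial control. In input it was at 77.8 and 76.7 CPM in Nop60B RNAi, against 91.0 and 139 in the cyst control and 137 and 155 in the germarial control. geminin was called lower in polysomes, with log2 fold changes of -1.71 against the germarial control (SE 0.35, edgeR FDR = 0.0174) and -1.14 against the cyst control (0.35, FDR = 0.0617), and was not called in input (-0.92 and -0.58). The change of its polysome-to-input ratio was -0.79 against the germarial control (SE 0.48, edgeR FDR = 1), so a difference between the fractions was not detected. dup had 23.0 and 28.4 CPM in Nop60B RNAi polysomes, against 32.6 and 166 in the cyst control and 67.6 and 87.6 in the germarial control. Orc2 was lowered in input against the cyst control (-2.42, edgeR FDR = 0.106), as was Orc6 (-1.54, FDR = 0.200), while Orc4 and Orc5 were called in no comparison.

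Among 6 helicase activation genes, 1 was called lower in Nop60B RNAi, in polysomes against the germarial control (11.7% of all tested genes). Another was called higher, in polysomes against the cyst control (9.84%). Psf3 (FBgn0030196, chromosome X from 10383353 to 10385861), a GINS subunit that overlaps CG17841 on the other strand, was at 76.0 and 75.4 CPM in Nop60B RNAi polysomes, against 28.5 and 39.5 in the cyst control and 62.5 and 56.1 in the germarial control. In input it was at 87.4 and 80.4 CPM in Nop60B RNAi, against 92.5 and 45.8 in the cyst control and 57.8 and 55.1 in the germarial control. It was called higher in polysomes against the cyst control (log2 fold change 1.15, SE 0.42, edgeR FDR = 0.111), and was the 1 gene of the 38 called higher against a control under TMM. Against the germarial control its log2 fold changes were 0.35 in polysomes and 0.57 in input, and neither was called. Sld5, another GINS subunit, had 3.03 and 14 CPM in Nop60B RNAi polysomes, against 42.8 and 53.8 in the germarial control, and was called lower there (-2.50, SE 1.10, edgeR FDR = 0.169). Mcm10, CDC45L, Psf1 and Psf2 were called in no comparison with Nop60B RNAi. Psf1, a low GINS mRNA, had log2 fold changes against the cyst control of 1.35 in polysomes (SE 1.43) and 1.67 in input (SE 1.43). CDC45L, the fly Cdc45, had 14.8 and 15.8 CPM in Nop60B RNAi polysomes, against 2.26 and 145 in the cyst control and 82.2 and 85.4 in the germarial control. CDC45L lies within su(w[a]) on the other strand.

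Among the polymerase and primase genes, PolA2 and PolE1 were lowered in input against both controls, where 2.57% of all tested genes were. PolA2 (FBgn0005696, chromosome 3R from 27239163 to 27241228), the B subunit of polymerase alpha, was at 13.2 and 10.8 CPM in Nop60B RNAi input, against 31.7 and 70.5 in the cyst control and 38.9 and 45.9 in the germarial control. Its polysome levels were 28.1 and 28.2 CPM in Nop60B RNAi, against 57.4 and 71.5 in the cyst control and 46.3 and 57.3 in the germarial control. No group overlapped Nop60B RNAi, and the log2 fold changes were -2.09 in input (edgeR FDR = 0.0485) and -1.20 in polysomes (FDR = 0.152) against the cyst control, and -1.82 (FDR = 0.0790) and -0.88 (FDR = 0.273, not called) against the germarial control. PolE1 (FBgn0264326, chromosome 3R from 23348128 to 23355163), the catalytic subunit of polymerase epsilon, was at 21.1 and 18.5 CPM in Nop60B RNAi input, against 37.9 and 90.9 in the cyst control and 63.2 and 62.4 in the germarial control. It was at 32.9 and 19.3 CPM in Nop60B RNAi polysomes, against 53.4 and 90.8 in the cyst control and 65.9 and 59.7 in the germarial control. PolE1 was called lower in all 4 comparisons, with log2 fold changes between -1.70 and -1.27 and edgeR FDR values between 0.0968 and 0.148. PolA1, the catalytic subunit of polymerase alpha, was called lower only in input against the cyst control (-2.85, SE 1.11, FDR = 0.168), with 13.4 and 18.4 CPM in Nop60B RNAi against 62.5 and 167. Prim1 (which overlaps CG7083 on the same strand), Prim2, PolE2, PolD1 and PolD2 were called in no comparison.

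Among 8 clamp, clamp loader, single-strand binding and Okazaki fragment genes, 5 were called lower in polysomes (11.7% of all tested genes) and 6 in input (6.35%) against the germarial control. Against the cyst control 1 was called lower in polysomes (16.7%) and 2 in input (10.2%). PCNA, RfC3, RfC4 and Fen1 were called lower in both fractions relative to germarial controls and in neither relative to cyst controls. Fen1, the flap endonuclease, had log2 fold changes in polysomes of -1.20 relative to germarial controls and -0.89 relative to cyst controls, and whether the 2 contrasts differ was not tested. PCNA, the sliding clamp, was chosen for per-library values after they were seen. It was at 128 and 191 CPM in Nop60B RNAi polysomes, against 121 and 176 in the cyst control and 422 and 408 in the germarial control. In input it was at 131 and 81.8 CPM in Nop60B RNAi, against 108 and 181 in the cyst control and 351 and 350 in the germarial control. Nop60B RNAi and cyst control levels of PCNA overlapped in both fractions, and both genotypes lay below the germarial control without overlap. Relative to the germarial control PCNA had a log2 fold change of -1.38 in polysomes (SE 0.38, edgeR FDR = 0.0475) and -1.72 in input (0.38, FDR = 0.0347), and relative to the cyst control 0.10 (FDR = 0.877) and -0.44 (FDR = 0.555).

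Gnf1 (FBgn0004913, chromosome 3R from 4906622 to 4910081), the large clamp loader subunit, was lowered in all 4 comparisons. It was at 43.2 and 56.7 CPM in Nop60B RNAi polysomes, against 200 and 165 in the cyst control and 123 and 145 in the germarial control. In input it was at 58.2 and 60.4 CPM in Nop60B RNAi, against 106 and 279 in the cyst control and 133 and 147 in the germarial control. No control library overlapped those of Nop60B RNAi. The log2 fold changes of Gnf1 were -1.87 in polysomes (edgeR FDR = 0.0224) and -1.70 in input (FDR = 0.0467) against the cyst control, and -1.42 (FDR = 0.0593) and -1.24 (FDR = 0.126) against the germarial control. DNAlig1 (FBgn0262619, chromosome 2R from 23890512 to 23893177), which seals Okazaki fragments, was at 28.7 and 28.1 CPM in Nop60B RNAi input, against 46.3 and 113 in the cyst control and 69.8 and 71.8 in the germarial control. In polysomes its 28.3 and 37.4 CPM overlapped the 32.1 and 89.0 CPM of the cyst control and lay below the 63.8 and 87.1 CPM of the germarial control. It was called lower in input against both controls (FDR = 0.161 against the cyst control and 0.222 against the germarial control) and in polysomes against neither. RpA-70, the large subunit of the single-strand binding protein, was called in no comparison and had 122 and 132 CPM in Nop60B RNAi input, against 155 and 330 and against 200 and 211 in the cyst and germarial controls. RfC38 was called in none.

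Ribonucleotide reductase makes deoxynucleotides from a large and a small subunit. RnrL (FBgn0011703, chromosome 2L from 10325026 to 10327943), the large subunit, was at 76.0 and 74.8 CPM in Nop60B RNAi input, against 131 and 356 in the cyst control and 178 and 174 in the germarial control. Its polysome levels were 98.8 and 99.5 CPM in Nop60B RNAi, against 202 and 238 in the cyst control and 194 and 184 in the germarial control. RnrL was about equal in the Nop60B RNAi replicates and below all control libraries, with log2 fold changes of -1.69 in input (edgeR FDR = 0.0431) and -1.15 in polysomes (FDR = 0.0958) against the cyst control, and -1.22 (FDR = 0.121) and -0.93 (FDR = 0.161, not called) against the germarial control. RnrS, the small subunit, was called lower only in input against the germarial control (-1.21, FDR = 0.136), with 121 and 128 CPM against 290 and 284. In polysomes its 232 and 176 CPM in Nop60B RNAi lay below the 410 and 325 CPM of the germarial control, without a call. They were within the 90.4 to 208 CPM of the cyst control for replicate 2 and above it for replicate 1.

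The genes of the S-phase kinase pair were called lower against different controls, and whether their changes differ was not tested. Cdk2 (FBgn0004107, chromosome 3R from 20735623 to 20738414), the catalytic subunit, overlaps CG17267 on the other strand and mir-995 on its own. It was at 34.6 and 17.5 CPM in Nop60B RNAi polysomes, against 6.33 and 67.2 in the cyst control and 121 and 121 in the germarial control. In input it was at 21.1 and 28.9 CPM in Nop60B RNAi, against 36.5 and 105 in the cyst control and 108 and 102 in the germarial control. Cdk2 was called lower against the germarial control, by -2.21 in polysomes (SE 0.85, edgeR FDR = 0.124) and -2.07 in input (0.85, FDR = 0.202). It was not called against the cyst control (-0.53 in polysomes and -1.50 in input), whose polysome replicates lay on both sides of Nop60B RNAi. CycE, the cyclin, was at 19.5 and 1.59 CPM in Nop60B RNAi polysomes, against 81.8 and 155 in the cyst control and 36.7 and 34.8 in the germarial control. Its log2 fold change against the cyst control was -3.49 in polysomes (SE 0.92, edgeR FDR = 0.0390) and -3.32 in input (0.92, FDR = 0.0672). CycE was not called against the germarial control, where its log2 fold changes were -1.76 in polysomes and -1.20 in input.

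Per base of exon, the genes spanned a wide range, which was compared in input as mean CPM per kilobase of annotated exon. In Nop60B RNAi the highest were PCNA at 99.4, RnrS at 78.2, geminin at 72.8, RpA-70 at 59.5 and RfC4 at 52.3, and the lowest was CycE at 2.48. In the germarial control the highest were PCNA at 328, RnrS at 180 and geminin at 138, and CycE was again lowest at 5.68. The 5 MCM subunits were close to each other in each genotype, between 12.5 and 16.6 in Nop60B RNAi and between 39.1 and 47.3 in the germarial control, and more spread in the cyst control, between 42.5 and 65.9. In the cyst control the replicates of each MCM subunit lay further apart than the means of neighbouring subunits.

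The polysome-to-input ratio asks whether a transcript shifted between fractions beyond its mRNA level. For Nop60B RNAi against the germarial control edgeR called 0 of 38 genes lower (2.65% of all tested genes) and 0 higher (0.558%), with a median change of 0.05 beside -0.08 over all genes. Against the cyst control it called 0 lower (4.86%) and 0 higher (1.42%), with a median of 0.54 beside -0.11. DESeq2 also called 0 in both comparisons, and 0 genes had an unadjusted P under 0.05 in edgeR whatever the fold. With each lysate as a block, PolA1 and RnrS were called higher against the cyst control and none lower. Leaving out single libraries gave ratio calls against the cyst control in both directions, depending on the library. Within Nop60B RNAi, polysomes exceeded input for Mcm2 (log2 fold change 1.09, edgeR FDR = 0.492) and PolA2 (1.23, FDR = 0.502), so that 2 genes were called higher (0.698% of all genes) and 0 lower (7.36%). In the cyst control Psf3 was called lower in polysomes than in input (-1.02, FDR = 0.867; 1.63% of all genes) and 0 genes higher (2.74%), while with the lysate as a block Cdk2 and PolA1 were called lower and Psf3 was not. In the germarial control 0 genes were called lower (1.19%) and 0 higher (0.0299%) by edgeR and by DESeq2, and 0 had an unadjusted P under 0.05. By lysate, 17 and 26 of 38 genes were higher in polysomes than in input in Nop60B RNAi, 16 and 14 in the cyst control and 26 and 33 in the germarial control.

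The cyst control was also set against the germarial control, as both are compared with Nop60B RNAi. In polysomes PCNA, RfC3 and RnrS were called lower and Cdc6 higher, which is 3 lower (6.96% of all tested genes) and 1 higher (14%). In input PCNA and RfC3 were called lower and CycE higher, which is 2 lower (7.46%) and 1 higher (9.85%). No FDR was under 0.05, and that of PCNA was 0.0507 in polysomes and 0.0862 in input. The log2 fold change of PCNA was -1.48 in polysomes (SE 0.38) and -1.28 in input (0.38), that of RfC3 -1.81 (0.57) and -1.41 (0.56), and that of Cdc6 in polysomes 1.71 (0.58). The ratio of the fractions gave 0 lower (0.498%) and 0 higher (0.817%) in edgeR and in DESeq2, and 0 at an unadjusted P under 0.05. Without cyst control polysome replicate 2 the polysome counts became 18 lower and 1 higher and the ratio counts 17 lower and 0 higher. With germline scaling the cyst control had 7 lower (13.7% of all tested genes) and 0 higher (6.53%) in polysomes. In input it had 5 lower (17.4%) and 0 higher (2.92%), so the higher calls of Cdc6 and CycE were not made under that scaling.

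The cyst control replicates differed more than those of the other genotypes, and most replication genes were higher in replicate 2 in each fraction. Mcm6, Cdc6, Gnf1, RfC4, RpA-70 and Prim1 were higher in replicate 1 in polysomes and in replicate 2 in input. Psf3 and Sld5 went the reverse way. Replicate 2 exceeded replicate 1 for 30 of 38 genes in polysomes and for 34 in input, and by at least 2-fold for 18 and 20. The spread was not limited to them. Over all genes averaging at least 10 CPM, 60.5% in polysomes and 33.4% in input lay at least 2-fold apart, against 17 and 21 of the 37 replication genes at that level. Replicate 2 was the higher for 53.7% of those genes in polysomes and 58.1% in input, and by at least 2-fold for 36.2% and 19.2%. At least 2-fold differences between replicates occurred for 8 genes in Nop60B RNAi polysomes. Of the 37 averaging at least 10 CPM they occurred for 7, against 17.2% of all genes at that level. In Nop60B RNAi input they occurred for 0 (1.49%), as in germarial polysomes (6.18%) and input (1.45%). In cyst control polysome replicate 1, 12 genes were under 4 CPM, and Orc4, Psf1 and Prim2 had 0 counts, where 3 counts correspond to 1.36 CPM. The same replicate held 27400 CPM of muscle markers in polysomes, against 3800 in replicate 2, and 1220 CPM of egg-chamber germline markers, against 4290. In input the muscle markers were at 19300 and 4140 CPM and the egg-chamber germline markers at 1210 and 5670 CPM in replicates 1 and 2. Their part in the spread of the replication genes was not tested.

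**Figure D5:**
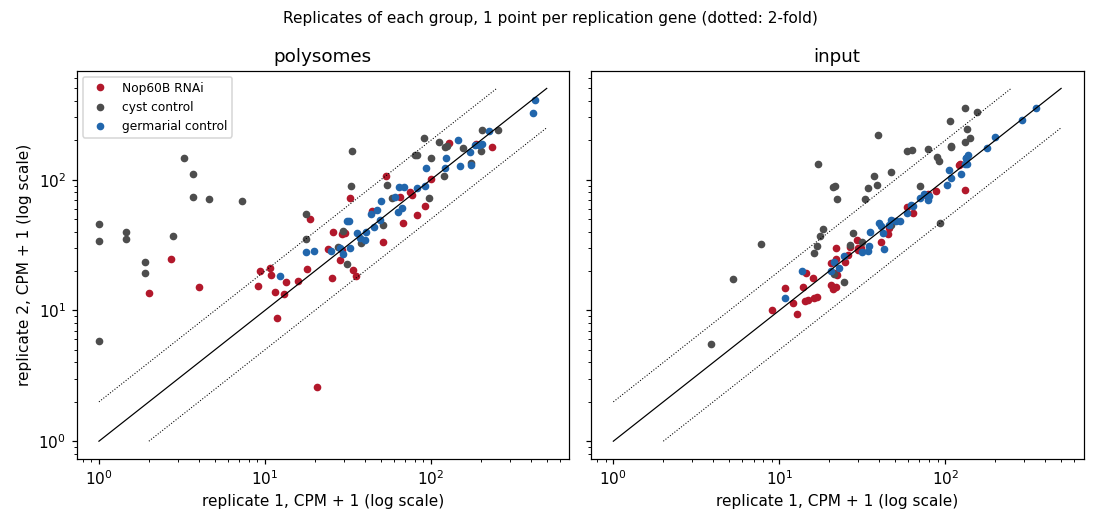
Replicate 2 against replicate 1 (CPM plus 1, both axes on a log scale) for the 38 replication genes in polysomes (left) and input (right), with the diagonal solid and 2-fold lines dotted. Cyst control genes lie above the diagonal for 30 of 38 in polysomes and 34 of 38 in input, while germarial control genes stay within the 2-fold lines.

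The wider replication machinery, a list of 36 measured genes with regulators, checkpoint and chromatin assembly factors, was counted by the same criteria. Against the germarial control 7 were called lower in polysomes (11.7% of all tested genes) and 7 in input (6.35%), with medians of -0.93 and -0.86, and 0 were called higher. Against the cyst control 13 (16.7%) and 14 (10.2%) were called lower and 0 higher, with medians of -1.04 and -1.10. The list summed to 1760 to 1960 CPM in Nop60B RNAi, 3150 to 5250 in the cyst control and 3710 to 3850 in the germarial control. stg, the Cdc25 phosphatase that drives entry into mitosis, was chosen after its values were seen. Its log2 fold change in polysomes against the germarial control (-2.87) was the lowest of the list. stg was at 22.5 and 37.6 CPM in Nop60B RNAi polysomes, against 85.0 and 286 in the cyst control and 259 and 182 in the germarial control.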

How the data were processed

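The authors aligned 75-base single-end poly(A) reads to dm6 with HISAT2 2.1.0, guided by RefSeq transcripts, and deposited raw counts per gene from featureCounts 1.4.6, per the labels and methods. Strand use and the handling of reads with several alignments are not given in the sources used here. Each library's 17023 counts were fitted with edgeR 4.0.16 in R 4.3.3, tested on simulated data first. The filterByExpr rule over 6 groups left 10035 genes, which were scaled by TMM, and given 1 mean per group over all 12 libraries. Thresholds of a 2-fold change and an unadjusted P of 0.05 follow the study's polysome sequencing methods and were applied to input too. With 2 libraries per group, P-values measure only the spread between these libraries, which share 1 spread per gene. The members and gene lists were chosen with earlier results of these data known. Per-library values are given for genes called the same way against both controls in a fraction, for the most abundant gene of a class without one, and for genes going against their class. Other genes are named by count or were chosen after their values were seen. Input and polysomes of 1 number come from 1 lysate. Their deviations correlated at 0.286 in the cyst control, 0.0362 in the germarial control and -0.000803 in Nop60B RNAi. Of 107 marker and accessory symbols 101 matched a counted gene. Floors of 3 counts cover counting error only, because reads had no molecular identifiers. Alternatives were DESeq2 1.42.0, RLE scaling, no filter, separate fits, a replicate block (the lysate for polysomes against input and for the ratio, the replicate number between genotypes), single libraries left out and, chosen after seeing the data, germline marker scaling.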

Additional observations from a re-analysis of the deposited data

How the results depend on the processing

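With 2 libraries per group, calls rested on single libraries. Shares of all tested genes are not given for these refits. Leaving out 1 library at a time gave these ranges of called replication genes. For Nop60B RNAi against the germarial control they were 6 to 24 in polysomes, 6 to 24 in input and 0 to 1 in the ratio. Relative to cyst controls they were 8 to 22 in polysomes, 5 to 17 in input and 0 to 14 in the ratio. For the cyst against the germarial control they were 2 to 19 in polysomes, 1 to 5 in input and 0 to 17 in the ratio. For polysomes against input they were 0 to 3 in Nop60B RNAi, 0 to 17 in the cyst control and 0 in the germarial control. The cause of these moves was not tested, beside the loss of a library. Separate fits called 27 genes in input and 1 in the ratio for Nop60B RNAi against the germarial control, 5 in polysomes against the cyst control, 5 in input for the cyst against the germarial control, and 0 for cyst polysomes against input. Without the count filter 1 gene was called in the ratio against the cyst control, 7 in polysomes for the cyst against the germarial control, 1 for Nop60B RNAi polysomes against input and 0 for those of the cyst control. DESeq2 called 7 genes in polysomes for the cyst against the germarial control. The replicate block called 2 genes in the ratio against the cyst control and 2 for cyst polysomes against input, and moved no other count by over 1.5 times. Germline marker scaling, chosen after seeing the data, called 2 genes in polysomes and 1 in input for Nop60B RNAi relative to germarial controls, 6 and 10 relative to cyst controls, 7 and 5 for the cyst against the germarial control, and 0 for cyst polysomes against input. Of 216 recomputed counts, 157 stayed within 1.5 times. Of 1020 recomputed values of single genes, 884 kept direction and call, 98 lost the call, 35 gained one and 3 changed sign. Without cyst control polysome replicate 2 the polysome log2 fold changes of Nop60B RNAi over the cyst control became 0.08 for DNAlig1 and 2.09 for Cdk2, and without replicate 1 they were -1.45 and -1.38. That of Psf3 in input became -0.10 without cyst control input replicate 2 and 0.87 without replicate 1. The 2780781 counts of cyst control polysome replicate 1 limit what can be said of genes near 1.36 CPM there.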
